A study of Homo sapiens with 5 samples.

Results

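The peroxisome proliferator-activated receptors PPARG, PPARA and PPARD were examined in gefitinib-resistant lung adenocarcinoma cells together with genes for fatty acid binding and uptake (FABP4, FABP5, CD36), lipid droplet coating (PLIN2) and mitochondrial fatty acid oxidation (CPT1A, ACADVL). These 9 symbols were chosen by the measured FPKM of PPARG, which was higher in the resistant cells, and each was read from the entry of its symbol with the highest mean expression. An entry was found for 8 of the 9 symbols, among 37181 entries in all. FABP4 had no entry under its symbol, and none that held its annotated transcripts, so it was not analysed here. Because the genes were chosen with the comparison of resistant and parental cells in view, their differences between the cells are given as a description, and counts of them past a threshold support nothing.

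HCC827 is a lung adenocarcinoma cell line with mutant EGFR, and all libraries carry the label of an exon 19 deletion. HCC827/GR cells were derived from it by stepwise gefitinib selection over more than 6 months, and the parental cells are labelled gefitinib sensitive. RNA sequencing of 3 HCC827/GR libraries (replicates 1, 2 and 3) and 2 HCC827 libraries (replicates 2 and 3) was used. Both are bulk libraries of 1 parental line and 1 resistant derivative, so a derivative selected a second time could differ. The labels do not say that the replicates came from separate cultures, so the spread between them may be technical.

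PPARs are nuclear receptors that bind fatty acids and their derivatives, pair with a retinoid X receptor (RXR) and sit on DNA elements called DR1, a direct repeat of the half-site AGGTCA with 1 base between the copies. PPARG is best known as the driver of fat cell differentiation and lipid storage, PPARA as the regulator of fatty acid oxidation and ketogenesis in liver, and PPARD as a broadly expressed regulator of fatty acid use. FABP4, CD36, PLIN2 and CPT1A are commonly used as readouts of these receptors, each with its own tissue range.

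The DR1 element, AGGTCA repeated with 1 base of any kind (N) between the copies, was searched on both strands in RefSeq promoter windows (GRCh38.p14), which hold 250 bases before and 50 bases after each gene start. FABP4 and FABP5 were not included in this search. Of 19 windows of the 7 genes searched, 1 came within 2 mismatches of the element, and it belongs to CD36. Of all 35116 windows 2.86% did, and 1 match in 19 windows is too few to tell a higher share from a lower one. The closest matches are shown for CD36, for PPARG itself and for ACADVL, with PLIN2 for contrast. Those of PPARA, PPARD and CPT1A, with 4, 5 and 5 mismatches, are not shown. Whether these matches go with the levels below was not tested. Capitals mark the 13 bases set against the element.
CD36, chr7:80638361-80638389, minus strand: atccaagtAAGTCAGAGGCCAgaaaaaca
PPARG, chr3:12288990-12289018, plus strand: ggagcctaAGGTAAGGAGTCAgaaacggg
ACADVL, chr17:7219936-7219964, plus strand: ccagagctGGGTCAGAGCTCGagccagcg
PLIN2, chr9:19127475-19127503, plus strand: ccacgaccCGGTCAAAGCGTGgggcccgc
The stretch of CD36 has 2 mismatches to the element and starts 147 bases before one of its 6 listed gene starts. The stretches of PPARG and ACADVL have 3 mismatches each, which 19.9% of all windows match or better, and that of PLIN2 has 5, which 99.7% match or better. These shares are of single windows, whereas each stretch is the best of its gene's windows, 6 for PPARG, 2 for ACADVL and 1 for PLIN2. A gene with more windows has more chances of a close match. These are matches of letters in short windows, not binding sites, and elements farther away were not searched.

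Expression was compared as FPKM, fragments scaled to transcript length and to library size, a level per transcript length that can be set side by side between genes. The depth of the libraries is unknown, because FPKM values carry no read counts. Between 8896 and 9803 of the 37181 entries were listed at 0 in a library, and a value of 0 is given only as listed. The epithelial markers EPCAM, KRT8, KRT18, KRT19 and CDH1 were expressed in every library, although their summed level was lower in HCC827/GR cells, at 443 to 573 FPKM against 1063 and 1182 FPKM. The adipocyte markers PLIN1, CIDEC and LEP together had 0.0882 to 0.136 FPKM in HCC827/GR libraries and 0.171 and 0.230 FPKM in HCC827 libraries. The macrophage list of 5 genes summed to 0.619 to 0.741 FPKM in HCC827/GR libraries and to 1.54 and 1.95 FPKM in HCC827 libraries. The endothelial list summed to at most 0.0333 FPKM in HCC827/GR libraries and to 3.42 and 4.44 FPKM in HCC827 libraries, nearly all of it from an entry of PECAM1. In the fibroblast list the sum was 2.63 to 3.04 FPKM in HCC827/GR libraries and 3.20 and 3.25 FPKM in HCC827 libraries. Most of it came from a PDGFRA entry that also holds transcripts of FIP1L1, at 1.88 to 1.91 FPKM against 2.40 and 2.53 FPKM. PDGFRB went the other way, at 0.184 to 0.278 FPKM against 0.00777 and 0.0147 FPKM. LUM was lower in HCC827/GR libraries, and DCN and COL1A1 overlapped. The part of these differences in the results below was not tested, and a change in the share of cells of a type cannot be told apart from a change in RNA per cell in bulk libraries.

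PPARG was clearly higher in the resistant cells, and the other receptors were not. PPARG (chromosome 3, 12287368 to 12434356 in GENCODE release 29, GRCh38) reached 8.09, 8.32 and 8.48 FPKM in replicates 1, 2 and 3 of HCC827/GR, and 3.47 and 3.58 FPKM in HCC827 replicates 2 and 3. The groups were far apart, with each library close to its group mean of 8.30 ± 0.194 FPKM (SD, n = 3) or 3.52 ± 0.0795 FPKM (SD, n = 2). The ratio of the means was 2.36, and the difference on the log2(FPKM + 1) scale was 1.04 (SE, the standard error from limma, 0.083). This difference is the one that brought PPARG into view, and it stayed between 1.02 and 1.06 when any of the 5 libraries was left out.

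PPARD, on chromosome 6 from 35342558 to 35428191, had 2.99, 2.39 and 2.74 FPKM in HCC827/GR libraries and 3.15 and 3.25 FPKM in HCC827 libraries. Every HCC827/GR value was thus below both HCC827 values, with a difference of -0.18 (SE 0.11) on the log2(FPKM + 1) scale. PPARA, on chromosome 22 from 46150521 to 46243756, reached 3.03, 0.5001 and 0.491 FPKM in replicates 1, 2 and 3 of HCC827/GR and 0.524 and 1.41 FPKM in HCC827 replicates 2 and 3. One resistant library thus held about as much PPARA as PPARD, while the remaining resistant libraries lay below both parental ones. The PPARA difference of 0.12 (SE 0.54) on the log2(FPKM + 1) scale rested on single libraries, since it was -0.36 without HCC827/GR replicate 1 and -0.21 without HCC827 replicate 2.

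Added together, the FPKM of the 3 receptor genes came to 14.1, 11.2 and 11.7 in HCC827/GR libraries and 7.14 and 8.24 in HCC827 libraries. PPARG made up 57.3%, 74.2% and 72.4% of this sum in HCC827/GR replicates 1, 2 and 3, and 48.5% and 43.4% in HCC827 replicates 2 and 3. PPARD made up between 21.2% and 23.4% in HCC827/GR libraries and 44.1% and 39.4% in HCC827 libraries. In parental cells PPARG and PPARD were thus close to each other in level, at 3.52 and 3.20 FPKM, without overlap of their values, and in resistant cells PPARG stood well above PPARD.

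**Figure D1:**
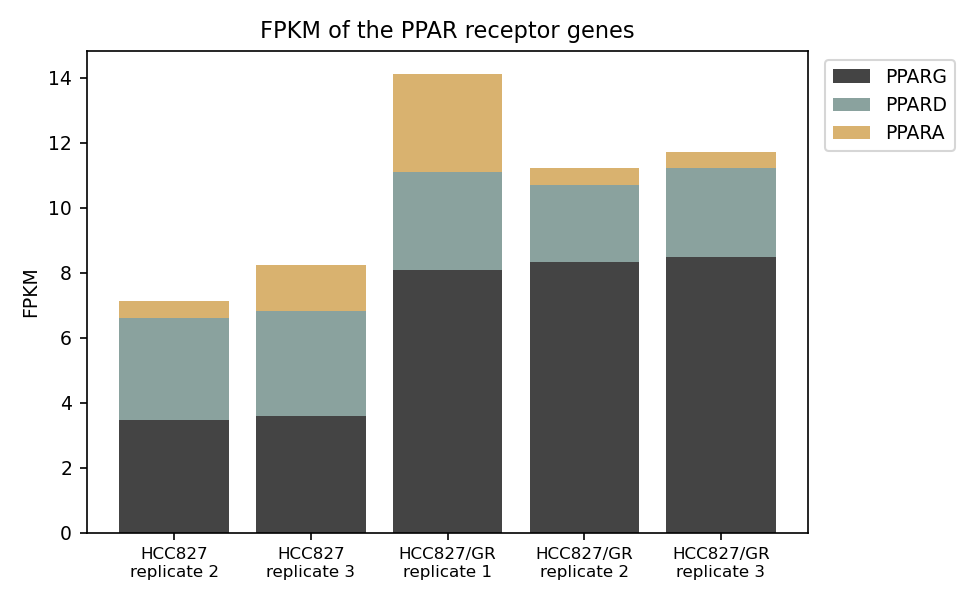
Stacked bars of the FPKM of PPARG, PPARD and PPARA in each of the 2 HCC827 and 3 HCC827/GR libraries, with FPKM on the vertical axis from 0. The PPARG segment is between 8.09 and 8.48 FPKM in HCC827/GR libraries and 3.47 and 3.58 FPKM in HCC827 libraries, and the PPARA segment is tall in HCC827/GR replicate 1.

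The lipid handling genes differed among themselves in direction. PLIN2, which codes for perilipin 2, a protein on the surface of lipid droplets (chromosome 9, 19108375 to 19149290), reached 20.4, 23.6 and 25.7 FPKM in replicates 1, 2 and 3 of HCC827/GR and 15.2 and 19.3 FPKM in HCC827 replicates 2 and 3. It was the lipid handling gene of the set with all HCC827/GR values above both HCC827 values, although the nearest values were close, and its difference was 0.41 (SE 0.16) on the log2(FPKM + 1) scale. That difference was 0.25 without HCC827 replicate 2 and 0.58 without HCC827 replicate 3.

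CD36, a membrane receptor for long-chain fatty acids (chromosome 7, 80369575 to 80679277), was close to 0 in both kinds of cells. It had 0.0173, 0.0156 and 0.0213 FPKM in HCC827/GR libraries and 0.0221 and 0.0166 FPKM in HCC827 libraries, and these overlapped. It stayed below the mean of 0.5 FPKM required for testing.

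FABP5, the epidermal fatty acid binding protein (chromosome 8, 81280363 to 81284777), had 7.15, 6.76 and 9.60 FPKM in HCC827/GR libraries and 7.05 and 12.8 FPKM in HCC827 libraries. The HCC827 libraries differed more from each other than the groups did. The difference of -0.27 (SE 0.28) on the log2(FPKM + 1) scale became -0.66 without HCC827 replicate 2 and 0.12 without HCC827 replicate 3. FABP5 has near-identical processed copies in the genome, with which reads could have been shared, and the 4 entries named as FABP5 pseudogenes summed to between 0.143 and 0.361 FPKM in a library.

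**Figure D2:**
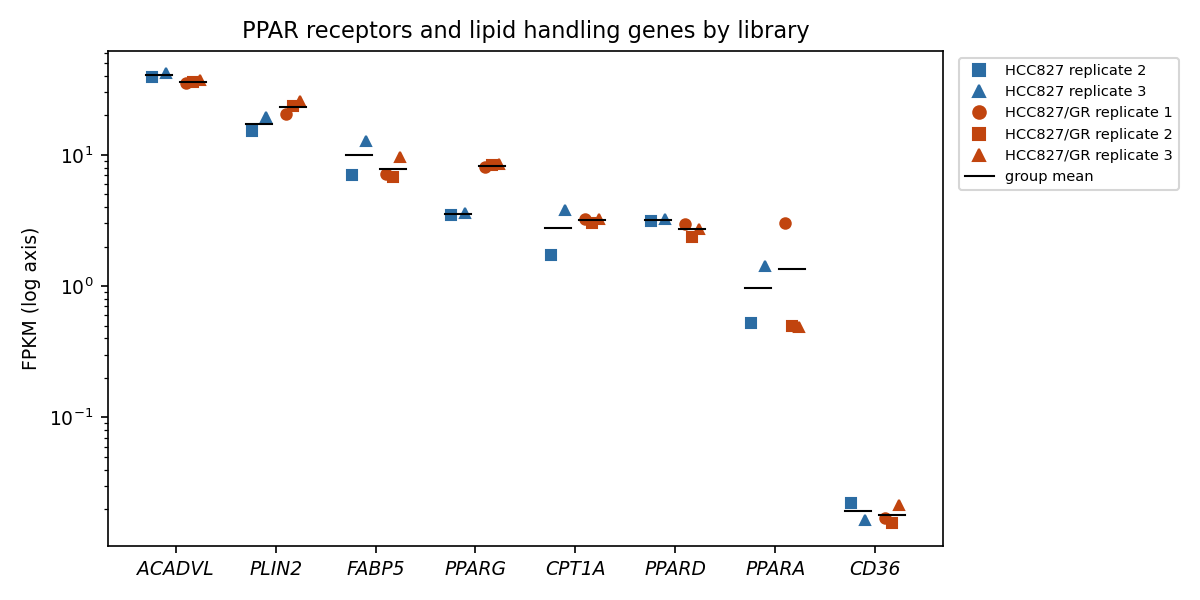
FPKM on a log axis for the 8 genes with an entry, in order of their mean over the 5 libraries, with HCC827 in blue, HCC827/GR in orange, a symbol for each replicate number and a line at the group mean. PPARG and PLIN2 are higher in every HCC827/GR library, FABP5, CPT1A, PPARA and CD36 overlap, and PPARD and ACADVL are lower in every HCC827/GR library.

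CPT1A codes for the liver form of carnitine palmitoyltransferase 1, which passes long-chain fatty acids to the mitochondrion and limits the rate of their oxidation (chromosome 11, 68754620 to 68844410). It had 3.22, 3.02 and 3.27 FPKM in HCC827/GR libraries, with little spread, and 1.74 and 3.80 FPKM in HCC827 libraries. The HCC827 values lay on either side of all HCC827/GR values. The difference of 0.20 (SE 0.25) on the log2(FPKM + 1) scale therefore took either sign, at -0.20 without HCC827 replicate 2 and 0.61 without HCC827 replicate 3.

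ACADVL codes for very long-chain acyl-CoA dehydrogenase, the first enzyme of mitochondrial oxidation of long-chain fatty acids (chromosome 17, 7217125 to 7225273). Its main entry had 35.5, 35.8 and 36.9 FPKM in HCC827/GR libraries and 39.1 and 41.9 FPKM in HCC827 libraries. All HCC827/GR values were below both HCC827 values, by a small margin, with a difference of -0.16 (SE 0.087) on the log2(FPKM + 1) scale.

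The order of levels was similar in both kinds of cells, with ACADVL first, PLIN2 second and CD36 last. In HCC827/GR cells PPARG (8.30 FPKM) followed PLIN2 with values that overlapped those of FABP5 (7.84 ± 1.54 FPKM, SD, n = 3), and the values of PPARD and PPARA also overlapped. In HCC827 cells FABP5 (9.94 ± 4.09 FPKM, SD, n = 2) followed PLIN2, and PPARG came next without overlap, and the values of PPARD and CPT1A overlapped. For 7 of the 8 genes HCC827 replicate 2 was below HCC827 replicate 3, whereas this held for 48.5% of all entries tested.

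Of these 8 genes, 7 reached the mean of 0.5 FPKM. PPARG was the 1 gene with a Benjamini-Hochberg adjusted p under 0.05 in limma's moderated test over all entries, where 11.0% of the 16189 entries tested had one. It was also the 1 gene with a fold change of at least 2 at an unadjusted p under 0.05, where 2.96% of all entries tested were higher and 3.97% lower by that rule. The groups did not overlap for 4 of the 7 genes, 2 above and 2 below, against 46.3% of all entries tested (22.8% above and 23.4% below). Nothing is read from these counts, because the same comparison was used to choose the genes.

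**Figure D3:**
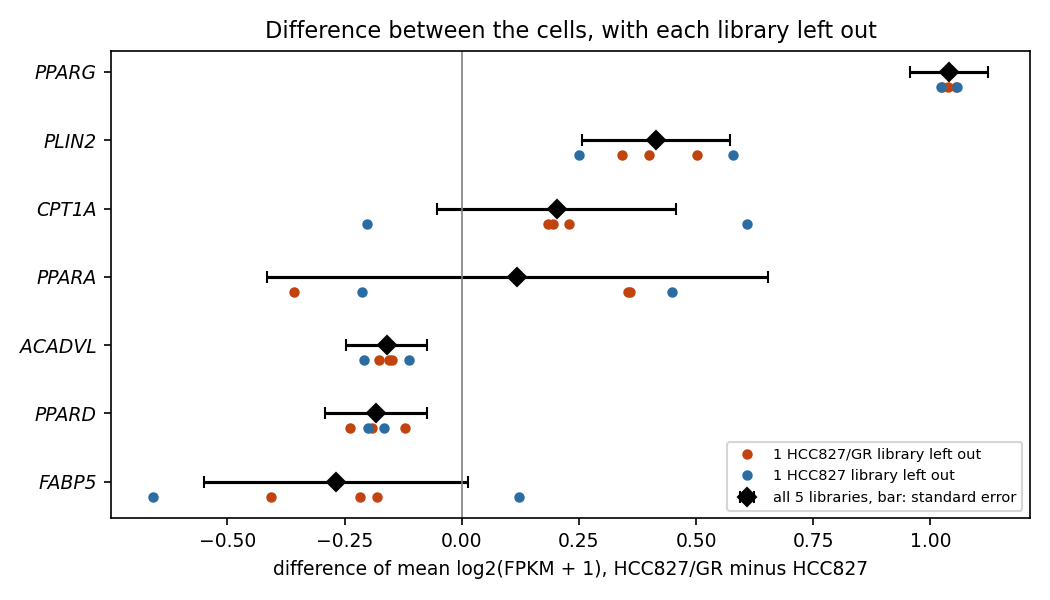
Difference of mean log2(FPKM + 1), HCC827/GR minus HCC827, for the 7 genes with a mean of at least 0.5 FPKM, with diamonds and standard error bars for all 5 libraries and dots for the value with 1 library left out. PPARG stays between 1.02 and 1.06, whereas CPT1A, PPARA and FABP5 cross 0 when single libraries are left out.

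The entries whose profile over the 5 libraries was nearest to that of PPARG, by Euclidean distance of centred log2(FPKM + 1) values, were ADCY9 (0.102), TRIP6 (0.117) and LHFPL2 (0.117). They were picked out of 16189 entries, so a close match on so few libraries is a description only. ADCY9, an adenylate cyclase, had 5.47, 5.28 and 5.34 FPKM in HCC827/GR libraries and 2.17 and 2.31 FPKM in HCC827 libraries.

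To see the receptors in their pathway, 124 further genes in 7 lists were examined, of which 109 had an entry and 83 a mean of at least 0.5 FPKM. By limma with Benjamini-Hochberg adjustment over all entries, 5 of the 83 were higher in HCC827/GR cells, 3 were lower and 75 were not called. PPARGC1A, CEBPA and DGAT2, which make up 3 of the 5, averaged under 0.5 FPKM in HCC827 cells and passed the filter only through HCC827/GR cells, so the count of higher genes is a description. This share of 9.64% stands beside 11.0% of all entries tested (5.26% higher and 5.71% lower). The median log2 fold change was 0.10 over the 83 genes and 0.00143 over all entries tested. Another 26 genes with an entry stayed below the mean of 0.5 FPKM, and 15 symbols had no entry of their own, 9 of them because their transcripts were joined to the entry of another gene.

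Among partners and coregulators of the receptors, 2 of 16 tested genes rose, 1 fell and 13 were not called. This share of 18.75% called stands beside 11.0% of all entries tested. Both genes that rose passed the filter only through HCC827/GR cells, so their count is a description. PPARGC1A, which codes for the coactivator PGC-1alpha, known for raising mitochondrial gene expression and fatty acid oxidation, had 2.66, 5.90 and 4.70 FPKM in HCC827/GR libraries and 0.0302 and 0.0694 FPKM in HCC827 libraries. Its values were near 0 in parental cells and clearly present in each resistant library, a log2 fold change of 2.32 (SE 0.29, limma adjusted p = 0.0155) that was 4.85 with a pseudocount of 0.1 in place of 1. CEBPA, a transcription factor that works with PPARG in fat cell differentiation, had 0.720, 1.13 and 0.693 FPKM in HCC827/GR libraries, against a listed 0 in each of the HCC827 libraries (limma adjusted p = 0.0424, and 0.0699 with no filter on low values). Its mean over the 5 libraries, 0.508 FPKM, was just past that filter. NRIP1, a corepressor of nuclear receptors also known as RIP140, fell from 7.20 and 5.65 FPKM in HCC827 libraries to 1.68, 1.97 and 2.19 FPKM in HCC827/GR libraries. Its log2 fold change was -1.33 (SE 0.14, limma adjusted p = 0.0115), for an entry that also holds transcripts of LINC02246.

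Of the RXR partners, RXRA had 12.9, 12.3 and 10.9 FPKM in HCC827/GR libraries and 8.03 and 8.54 FPKM in HCC827 libraries. Its groups did not overlap, but the log2 fold change of 0.49 (SE 0.11) had an adjusted p of 0.0569 from limma. RXRB had a log2 fold change of 0.29 (SE 0.16, adjusted p = 0.321) with overlapping groups, and RXRG had no entry. MED1, the subunit of the Mediator complex that PPARG contacts, was the most abundant gene of this list and varied widely, with 17.5, 20.4 and 33.8 FPKM in HCC827/GR libraries and 22.2 and 13.9 FPKM in HCC827 libraries.

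The calls among the partners were lost when some or any single library was left out, as were many calls over all entries. Their log2 fold changes kept their sign with any library left out. They stayed between 2.12 and 2.58 for PPARGC1A, -1.48 and -1.18 for NRIP1, and 0.771 and 0.935 for CEBPA. The adjusted p of PPARGC1A from limma was 0.0580, 0.103 and 0.0926 without HCC827/GR replicate 3, HCC827 replicate 2 and HCC827 replicate 3, in a range from 0.00838 to 0.226 over all alternatives, and that of NRIP1 was 0.0508 and 0.0625 without HCC827/GR replicate 1 and HCC827 replicate 2, in a range from 0.00808 to 0.202. The call of CEBPA was lost when any library was left out, its adjusted p being 0.103, 0.102 and 0.0848 without HCC827/GR replicates 1, 2 and 3 and 0.126 and 0.118 without HCC827 replicates 2 and 3, in a range from 0.0288 to 0.265.

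None of the 9 tested genes of the list of adipocyte PPARG targets was called by limma's adjusted p, although at an unadjusted p under 0.05 limma had 5 of them higher and 1 lower, and Ballgown's model 2 higher and 0 lower. Over all entries tested, limma had 13.4% higher and 13.8% lower at that threshold, and Ballgown's model 9.44% higher and 8.74% lower. The genes that limma had higher include OLR1 and GK, which averaged 0.0492 and 0.291 FPKM in HCC827 cells. Both passed the filter only through HCC827/GR cells, and 9 of the 18 genes with an entry stayed below it. These counts are therefore a description and support nothing. Of the 9 tested, 8 are described here, 7 of them outside the rule for named genes and with their values already seen. ME1, the cytosolic malic enzyme, which supplies NADPH for lipid synthesis, had 13.1, 7.55 and 11.6 FPKM in HCC827/GR libraries and 4.85 and 5.10 FPKM in HCC827 libraries. Its log2 fold change of 0.94 (SE 0.24) had an adjusted p of 0.0768. ACSL1, which activates long-chain fatty acids, had 4.54, 3.30 and 5.15 FPKM in HCC827/GR libraries against 2.25 and 1.39 FPKM, and AGPAT2, an acyltransferase of triglyceride synthesis, had 23.6, 27.4 and 25.1 FPKM against 16.5 and 18.6 FPKM. Their log2 fold changes were 0.92 (SE 0.22, adjusted p = 0.0688) and 0.51 (SE 0.11, adjusted p = 0.0563).

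OLR1, GK, PLIN4 and NR1H3 also had every HCC827/GR value above both HCC827 values, with adjusted p-values from 0.106 to 0.296. OLR1, a scavenger receptor for oxidized lipoprotein, had 2.24, 0.574 and 2.12 FPKM in HCC827/GR libraries and 0.0846 and 0.0138 FPKM in HCC827 libraries. SCD, the stearoyl-CoA desaturase and the most abundant gene of this list, had 101.2, 157.8 and 79.1 FPKM in HCC827/GR libraries and 243.7 and 130.8 FPKM in HCC827 libraries, which overlapped.

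In all, 7 of the 9 tested had groups that did not overlap with HCC827/GR above, where 22.8% of all entries tested did. Low genes such as OLR1 and GK passed the filter only through their higher group, so this count is a description. Over the 18 genes with an entry, tested or not, the groups did not overlap for 8 with HCC827/GR above and for 3 below, and 7 overlapped. The genes most particular to fat cells were hardly expressed, since LPL was listed at 0 in 4 of the libraries and at 0.00885 FPKM in HCC827/GR replicate 1, the mean of PLIN1 was at most 0.0813 FPKM in a group, and ADIPOQ had no entry.

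**Figure D4:**
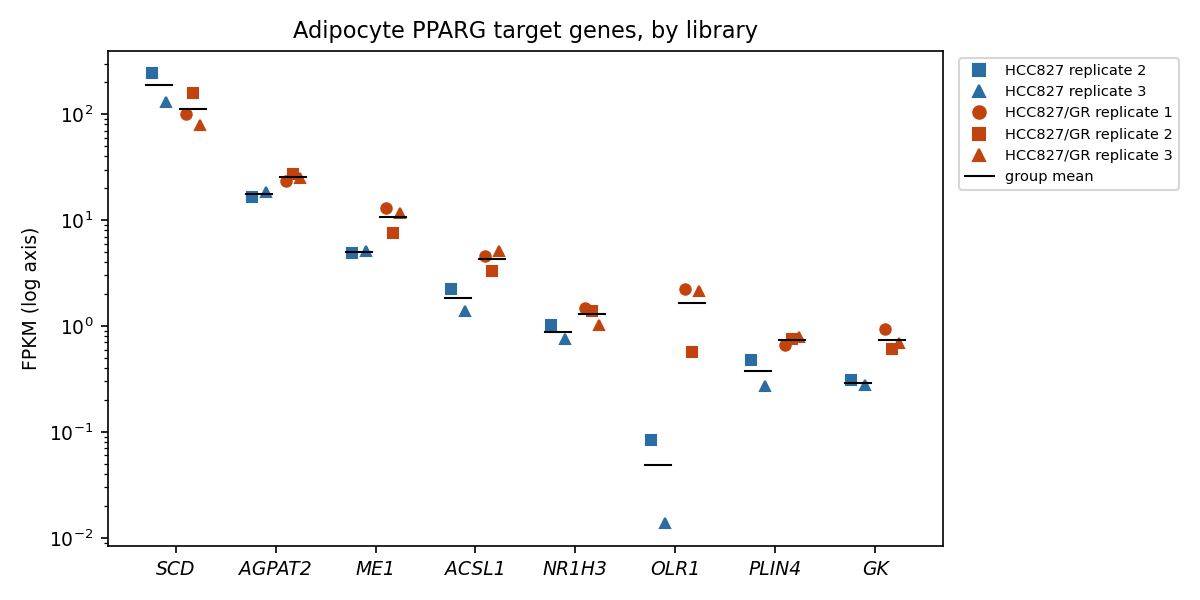
FPKM on a log axis for 8 of the 9 tested genes of the list of adipocyte PPARG targets, in order of their mean, with HCC827 in blue, HCC827/GR in orange and a line at the group mean. AGPAT2, ME1, ACSL1, NR1H3, OLR1, PLIN4 and GK are higher in every HCC827/GR library, and SCD overlaps, while none passed an adjusted p of 0.05.

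Among genes that respond to PPARs in several tissues, none of the 7 tested was called by limma or by Ballgown's model, and at an unadjusted p under 0.05 each had 1 higher and 0 lower, beside 13.4% and 13.8% of all entries tested for limma. The gene past that threshold in limma was UCP2, a mitochondrial uncoupling protein named here after its values were seen, with 3.98, 2.91 and 2.80 FPKM in HCC827/GR libraries and 2.27 and 1.60 FPKM in HCC827 libraries (log2 fold change 0.53, SE 0.18, limma adjusted p = 0.150). ANGPTL4, a secreted inhibitor of lipoprotein lipase that is often used as a readout of PPAR activity, had 0.807, 0.837 and 1.16 FPKM in HCC827/GR libraries and 1.31 and 2.56 FPKM in HCC827 libraries. PDK4, the kinase that turns off pyruvate dehydrogenase when fatty acids are burned, had 3.68, 3.21 and 3.26 FPKM in HCC827/GR libraries and 4.17 and 4.10 FPKM in HCC827 libraries. In both genes every HCC827/GR value was below both HCC827 values, with log2 fold changes of -0.57 (SE 0.22, adjusted p = 0.190) and -0.23 (SE 0.095, adjusted p = 0.208). TXNIP, the most abundant gene of this list, had 32.9, 19.9 and 24.4 FPKM in HCC827/GR libraries against 37.2 and 31.7 FPKM, which overlapped.

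In the list for fatty acid uptake, binding and activation, 1 of 12 tested genes rose and 2 fell, where 5.26% of all entries tested rose and 5.71% fell. VLDLR, the very low density lipoprotein receptor, had 16.1, 15.6 and 14.4 FPKM in HCC827/GR libraries and 4.45 and 6.04 FPKM in HCC827 libraries, a log2 fold change of 1.40 (SE 0.14, limma adjusted p = 0.0109). ACSL5, a long-chain acyl-CoA synthetase, had 0.779, 0.720 and 1.10 FPKM in HCC827/GR libraries and 6.99 and 5.83 FPKM in HCC827 libraries. It fell by 1.99 on the log2(FPKM + 1) scale (SE 0.14, limma adjusted p = 0.00518), and its adjusted p stayed under 0.05 with any library left out. It was 0.170 with Ballgown's model and 0.133 with the replicate number as a block, in a range over all alternatives from 0.00421 to 0.170.

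GOT2, the mitochondrial aspartate aminotransferase that has also been described as a fatty acid binding protein of the plasma membrane, was the most abundant of this list. It had 32.6, 33.6 and 36.0 FPKM in HCC827/GR libraries and 67.4 and 75.2 FPKM in HCC827 libraries, a log2 fold change of -1.05 (SE 0.10, limma adjusted p = 0.0100). Without HCC827/GR replicate 1 the adjusted p was 0.0518 for VLDLR and 0.0508 for GOT2, in ranges over all alternatives from 0.00942 to 0.210 and from 0.00740 to 0.140. The acyl-CoA synthetases thus stood in different places, with ACSL5 lower and ACSL1, ACSL3 and ACSL4 not called. ACSL1 and ACSL3 (log2 fold change 0.38) were higher in each resistant library without passing the test. ACSL4 (-0.65), whose entry also holds transcripts of KCNE5, was lower in each. For ACSL3 and ACSL4 the nearest values of the groups were close.

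Of 16 tested genes for lipid droplet formation and lipolysis, DGAT2 was the 1 that rose and none fell, where 11.0% of all entries tested were called. With a mean of 0.348 FPKM in HCC827 cells it passed the filter only through HCC827/GR cells, so this count is a description. DGAT2, which catalyses the last step of triglyceride synthesis, had 1.07, 1.32 and 1.35 FPKM in HCC827/GR libraries and 0.328 and 0.368 FPKM in HCC827 libraries, a log2 fold change of 0.73 (SE 0.13, limma adjusted p = 0.0328) that was 1.58 with a pseudocount of 0.1. SOAT1, which esterifies cholesterol for storage, was the most abundant of this list, with 38.0, 43.0 and 44.6 FPKM in HCC827/GR libraries and 16.4 and 31.7 FPKM in HCC827 libraries (log2 fold change 0.84, adjusted p = 0.150).

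Of 13 tested mitochondrial genes, ECI2 rose and the others were not called, where 11.0% of all entries tested were called. The list median was 0.14 on the log2(FPKM + 1) scale. ECI2, an enoyl-CoA isomerase, had 6.12, 5.71 and 6.29 FPKM in HCC827/GR libraries and 3.95 and 3.99 FPKM in HCC827 libraries, a log2 fold change of 0.50 (SE 0.089, limma adjusted p = 0.0341). HADHA, a subunit of the mitochondrial trifunctional protein and the most abundant of this list, had 80.0, 78.7 and 76.9 FPKM in HCC827/GR libraries and 72.6 and 68.3 FPKM in HCC827 libraries (log2 fold change 0.16, adjusted p = 0.332). Among 10 tested peroxisomal genes none was called by limma or Ballgown's model, limma had 3 higher and 1 lower at an unadjusted p under 0.05 (13.4% and 13.8% of all entries tested), and the median was 0.11. ABCD3, a peroxisomal transporter of fatty acids, was the most abundant of these, at 13.6, 17.6 and 15.9 FPKM in HCC827/GR libraries and 11.9 and 12.2 FPKM in HCC827 libraries (log2 fold change 0.34, adjusted p = 0.180).

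The calls of DGAT2 and ECI2 were lost when any library was left out, and with no filter on low values, at an adjusted p of 0.0844 and 0.0506 from limma. Without HCC827/GR replicates 1, 2 and 3 and HCC827 replicates 2 and 3 the adjusted p from limma was 0.0755, 0.101, 0.0877, 0.107 and 0.0936 for DGAT2 and 0.112, 0.0807, 0.0877, 0.119 and 0.107 for ECI2, in ranges over all alternatives from 0.0241 to 0.162 and from 0.0318 to 0.196.

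**Figure D5:**
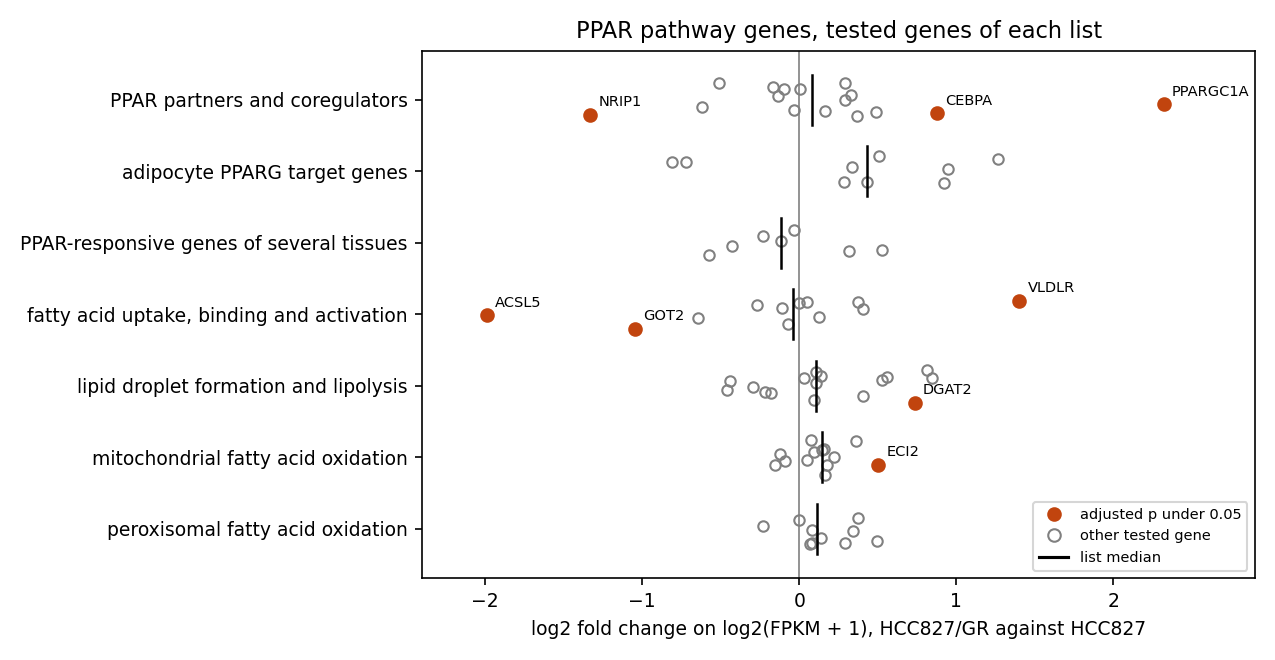
Log2 fold change on the log2(FPKM + 1) scale, HCC827/GR against HCC827, for the 83 tested genes of the 7 pathway lists, with filled points for an adjusted p under 0.05, open points for other tested genes and a line at each list's median. PPARGC1A, CEBPA, VLDLR, DGAT2 and ECI2 lie to the right of 0 and NRIP1, ACSL5 and GOT2 to the left, and list medians lie between -0.11 and 0.43.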

How the data were processed

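Gene-level FPKM values were deposited by the authors for each library, made per the study's methods with Cutadapt, Bowtie2, TopHat2, StringTie and Ballgown. The submitters' processing notes name hg18, whereas 135164 of the table's 135299 Ensembl transcript identifiers were found in GENCODE release 29 (GRCh38), from which positions were taken. Versions of the upstream tools are not given in the sources used here. The deposited sample descriptions speak of a small-RNA library and the methods of an mRNA library. A further FPKM column (1) matched no sample and was not used.

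HCC827/GR (3 libraries) was compared with HCC827 (2) by limma 3.58.1 in R 4.3.3 (lmFit and trended eBayes, two-sided test) on log2(FPKM + 1). The fit took in 16189 entries whose mean reached 0.5 FPKM, with Benjamini-Hochberg adjustment over all of them and a call at an adjusted p under 0.05. FPKM carries no counts, so no count model was used, and fold changes on this scale understate those of low genes. For a symbol with several entries, that with the highest mean was used. The fit was tested on simulated data. Figures used Python 3.11.15 and matplotlib 3.10.9.

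The genes and lists were chosen with earlier results of these data known. Named were the 9 symbols, up to 3 called genes per list and direction with the lowest p, each list's most abundant gene, usual readouts and partners (RXRA, RXRB, RXRG, ANGPTL4, PDK4, ADIPOQ, LPL) and the 3 entries most like PPARG. Some genes that were counted in the lists are not reported here. Alternatives were another pseudocount, filter, scaling, variance model or call rule, summed entries, a replicate block, the ratio of mean FPKM, and each library left out.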

Additional observations from a re-analysis of the deposited data

How the results depend on the processing

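FPKM carries no depth, so counting error is not covered here. For the pathway genes, 5 higher and 3 lower became 2 and 5 with no filter on low values, 3 higher with a mean of at least 1 FPKM and 3 higher where a call needed an unadjusted p under 0.05 and a change of 2-fold or more. Ballgown's model called 0 higher and 0 lower (14 and 6 at an unadjusted p under 0.05), and so did limma with the replicate number as a block (16 and 8 at an unadjusted p under 0.05). With 1 library left out the counts ran from 1 to 4 in each direction, and they were 1 higher and 1 lower without HCC827/GR replicate 1, 1 higher without HCC827/GR replicate 3 and 1 and 2 higher without HCC827 replicates 2 and 3. Over all entries, 851 higher and 924 lower became 504 higher with no filter, 4 and 9 with Ballgown's model (1529 and 1415 at an unadjusted p under 0.05), 0 and 0 with the replicate block (1676 and 1869 at an unadjusted p under 0.05), and 480 higher by the fold change rule. With 1 library left out they ran from 202 to 485 higher and from 287 to 477 lower.

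Over all entries tested, deviations from the group means of same-numbered libraries correlated at 0.0328 and 0.0147 only. With 2 HCC827 libraries these deviations mirror each other, so this cannot exclude that same-numbered libraries shared a culture or day. The labels do not say whether they did. The PPARG difference of 1.04 moved to 1.21 with a pseudocount of 0.1 and to 1.24 as the log2 ratio of mean FPKM, was 1.02 to 1.06 with 1 library left out, and kept its sign in each alternative run. The PPARA difference reversed to -0.36 with the replicate block, which leaves HCC827/GR replicate 1 without weight, and without that library, and to -0.21 without HCC827 replicate 2. It was 0.45 without HCC827 replicate 3. Reversed too were FABP5, to 0.12 without HCC827 replicate 3 (-0.66 without HCC827 replicate 2), and CPT1A, to -0.20 without HCC827 replicate 2 (0.61 without HCC827 replicate 3). With 1 HCC827 library left, it is assumed to vary like HCC827/GR.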
